A study of Mus musculus with 8 samples.

Results

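Cytoplasmic ribosomal protein genes were followed in E14TG2a cells, a mouse embryonic stem (ES) cell line of strain 129/Ola, in a series that asked how enhancers associated with the pluripotency factor gene Sox2 act. The genes were chosen by symbol: Rpl or Rps followed by a number and at most 1 letter, together with Rplp0, Rplp1, Rplp2 and Rpsa, leaving out symbols that mark pseudogenes and the Rps6k kinases. This found 73 of the 17733 gene identifiers used, 42 of the large and 31 of the small ribosomal subunit, on 19 chromosomes. Some other symbols that fit the rule were not analysed here. The annotation called 71 of the 73 protein coding, and the others, Rpl6l and Rps4l, processed pseudogenes.

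The series held 8 samples of total RNA in 4 groups, each with 2 replicates that the labels call biological. WT cells were set beside 3 lines, E1-KO, E2-KO and E3-KO, that each lack an enhancer removed with CRISPR/Cas9. All were grown without feeder cells on gelatin in medium with serum, LIF, the GSK3 inhibitor CHIR99021 and the MEK inhibitor PD0325901. The labels do not say where the enhancers lie or whether a knockout is 1 clone, so a property of a clone and the loss of the enhancer cannot be told apart. Levels are in FPKM, fragments per kilobase of transcript scaled to the size of the library, and summed to between 454974 and 532007 per sample over all rows; the read depth is unknown. Sox2 stood at 130.5 and 136 FPKM in WT, against 58.0 and 60.3 (E1-KO), 114 and 97.5 (E2-KO) and 97.7 and 91.0 (E3-KO). All 12 ES cell markers reached a mean of 1 FPKM (summed level 2517 to 3299 FPKM). In the comparisons with WT, 7, 5 and 6 of the 12 were called lower and 0, 2 and 0 higher (limma, for E1-KO, E2-KO and E3-KO in turn, by the test described further on). Of all tested genes, 23.0%, 22.0% and 30.8% were called lower and 15.0%, 14.2% and 13.9% higher. Sums of markers of other cells differed between groups, but their single markers did not all move the same way. The trophectoderm sum was 22.6 to 23.7 FPKM (WT), 22.3 to 29.3 (E1-KO), 18.2 to 18.7 (E2-KO) and 31.7 to 45.4 (E3-KO). In E1-KO, Krt8 was above WT (13.8 and 10.27 against 6.715 and 7.863 FPKM) and Krt18 below (6.257 and 5.335 against 10.17 and 9.477). The neuroectoderm sum was 8.24 to 9.69 FPKM (WT), 13.1 to 14.9 (E1-KO), 9.93 to 10.7 (E2-KO) and 17.3 to 18.1 (E3-KO). In E3-KO, Nes was above WT (11.34 and 10.55 against 6.113 and 4.983 FPKM) and Map2 below (0.3859 and 1.061 against 2.111 and 1.248). The primitive endoderm sum was 1.34 to 1.37 FPKM (WT), 0.644 to 0.745 (E1-KO), 0.918 to 1.00 (E2-KO) and 2.18 to 4.44 (E3-KO). Of its 6 markers 1 reached a mean of 1 FPKM, and Gata6 was at 3.723 and 1.758 FPKM in E3-KO. Fibroblast markers summed to 3.57 to 6.504 FPKM and markers of cells like the two-cell embryo to 0.947 to 3.98 over the 8 samples, with the lowest sample of each in WT. The part of these markers in the results was not tested.

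The ribosome joins a small subunit, which reads the mRNA, to a large subunit, which forms the peptide bonds. Its proteins are needed in nearly equal numbers, and cells that grow fast, such as ES cells, hold their mRNAs in large amounts. Many of these mRNAs begin with a C and a run of pyrimidines (the 5′ terminal oligopyrimidine or TOP motif), through which LARP1 and mTOR signalling tune their translation. Ribosomal protein genes also have many processed copies in the genome, so reads may be shared between copies and the level of a single gene is less certain than that of a unique gene.

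Start regions were examined because many of these mRNAs share the TOP motif. RefSeq promoter windows (build GRCm38.p6) were matched by symbol for 53 of the 73 genes. A C at the annotated start followed by at least 4 pyrimidines was found in 11 of the 53 (20.75%), against 2.49% of all 27025 genes of that table. A run of at least 8 pyrimidines led by C, within 50 bases after the start or reaching into the last 15 before it, was found in 37 (69.81%) against 18.25%. The letters CCGGAAG, searched on both strands, were in 22 (41.51%) against 9.121%, and TATAAA in the 50 bases before the start, on the strand of the gene, in 0 against 2.883%. The window of Rpl36a, printed below, holds TATAAA just after its annotated start, outside the bases searched, so this count depends on where the start is placed. The first search overlaps the second, and a match only describes the letters in a window.

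The windows printed here belong to 5 of the genes with the deepest falls and 4 of those with rises against WT described further on, so that the letters at their starts can be compared. Each runs from 35 bases before to 15 after the annotated start, 5′ to 3′ on the strand of the gene, and capitals mark runs of at least 5 pyrimidines led by C. Of the genes that fell, Rps16 (chr7:28350654-28350703) and Rps19 (chr7:24884557-24884606) lie on the plus strand, and Rps15a (chr7:118116133-118116182), Rps3 (chr7:99483695-99483744) and Rpl39 (chrX:37085208-37085257) on the minus strand. Of those that rose, Rpl36a (chrX:134585619-134585668), Rpl38 (chr11:114668545-114668594) and Rpl19 (chr11:98026675-98026724) lie on the plus strand and Rps13 (chr7:116334176-116334225) on the minus strand.
Rps15a: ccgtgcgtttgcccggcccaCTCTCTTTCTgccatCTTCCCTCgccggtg
Rps16: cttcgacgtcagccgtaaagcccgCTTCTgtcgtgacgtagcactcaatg
Rps19: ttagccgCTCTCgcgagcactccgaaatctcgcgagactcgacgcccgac
Rps3: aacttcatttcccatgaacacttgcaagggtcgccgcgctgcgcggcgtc
Rpl39: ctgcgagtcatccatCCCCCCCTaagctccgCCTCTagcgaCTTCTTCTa
Rpl36a: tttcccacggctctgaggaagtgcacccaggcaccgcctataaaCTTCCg
Rpl38: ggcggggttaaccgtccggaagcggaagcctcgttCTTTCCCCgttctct
Rpl19: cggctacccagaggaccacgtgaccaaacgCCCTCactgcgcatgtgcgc
Rps13: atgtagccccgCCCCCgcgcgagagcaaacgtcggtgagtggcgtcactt
The longest run was 10 bases in Rps15a, followed by 8 in both Rpl39 and Rpl38, and Rps3 had 0 such runs in its window. Longer and shorter runs thus occurred among genes that fell and among genes that rose. Over the tested genes with a promoter entry, the 36 with a run of at least 8 in the wider search had median log2 fold changes against WT of -0.28, -0.02 and -0.20 for E1-KO, E2-KO and E3-KO in turn, and the 16 without one had -0.32, -0.01 and -0.26.

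Levels in WT spanned a wide range. Leaving out the pseudogenes and the genes whose symbols end in l, 67 genes had WT means from 139.7 to 4308 FPKM with a median of 1079 FPKM. Rps24 was highest at 4308 ± 93.4 FPKM (SD, n = 2), followed by Rps26 at 3243 ± 263, Rps3 at 2663 ± 170.4, Rps15 at 2339 ± 26.6 and Rpl32 at 2194 ± 58.9. Neighbours in this order did not overlap in WT, while Rpl32 overlapped with Rps12, the next gene. Rpl29, a large subunit protein, was the lowest of the 67, with 143 and 136 FPKM in WT.

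Genes whose symbols end in l stood below that median. Rpl3l, known from heart and skeletal muscle, ranged from 0.496 to 1.32 FPKM over the 8 samples and was the only one of the 73 below a mean of 1 FPKM, which left 72 genes to test. Rpl39l and Rpl10l, both known from the testis, stood at 43.9 ± 0.538 and 97.1 ± 0.738 FPKM in WT (SD, n = 2), and Rps27l, a p53 target, at 278 ± 5.33. Of the pseudogenes, Rpl6l was at 0.46 FPKM in WT replicate 1 and listed at 0 in replicate 2, while Rps4l was at 395 and 434 FPKM.

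The 73 genes summed to 79832 and 82360.1 FPKM in WT, against 67063 and 66148 (E1-KO), 86162 and 72041 (E2-KO) and 78826 and 65163 (E3-KO). Both E1-KO samples lay below both WT samples, and in E2-KO and E3-KO replicate 1 lay well above replicate 2. As a share of all FPKM they made up 17.2 and 17.3% in WT, against 13.9 and 13.9% (E1-KO), 16.4 and 15.2% (E2-KO) and 16.7 and 14.5% (E3-KO), so every knockout sample was below both WT samples. In such bulk samples, fewer cells of a type and less RNA per cell cannot be told apart.

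The balance of the subunits differed as well. The large subunit genes summed to 0.861 and 0.857 times the small subunit genes in WT, against 0.928 and 0.944 (E1-KO), 0.997 and 0.976 (E2-KO) and 0.952 and 0.881 (E3-KO). All 6 knockout samples had a higher ratio than both WT samples. An exact permutation test of 2 against 2 samples cannot go below a two-sided p of 0.33, so this ratio was not tested.

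Each gene was then compared with limma on log2(FPKM + 1), in a fit of all 8 samples and of the 11272 genes whose mean reached 1 FPKM. A gene is said to have risen or fallen at a two-sided Benjamini-Hochberg adjusted p under 0.05. Fold changes are on the log2(FPKM + 1) scale, and the p-values measure only the spread between these samples. The comparisons with WT share the WT samples.

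In E1-KO, 2 of the 72 genes rose and 24 fell against WT, and 46 did not pass the test. Called were 36.1%, near the 38.0% of all tested genes (15.0% higher and 23.0% lower). The median log2 fold change was -0.32 over the 72 genes and -0.06 over all genes. Of 41 tested large subunit genes, 2 rose and 11 fell (median -0.33), and of 31 small subunit genes, 0 rose and 13 fell (median -0.27). The median was -0.31 and -0.32 without WT replicate 2 or 1, beside -0.04 and -0.08 over all genes. It was -0.29 and -0.32 without E1-KO replicate 1 or 2, beside -0.06 and -0.06. Fewer of the 72 genes, and fewer of all genes, were called in each of these fits.

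In E2-KO, 6 genes rose and 12 fell, 18 of 72 in all, beside 36.1% of all tested genes (14.2% higher and 22.0% lower). The median was -0.04, beside -0.08 over all genes, and it became 0.04 when samples were scaled by median ratios, with 11 rises and 10 falls. Of all genes, 17.8% rose and 17.5% fell with that scaling. The large subunit had 5 rises and 6 falls, and the small subunit 1 and 6. The median of the 72 genes leaned either way with the sample left out. It was -0.23 without E2-KO replicate 1 and 0.06 without E2-KO replicate 2. Without WT replicate 1 it was -0.07, and without WT replicate 2 -0.01.

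In E3-KO, 5 genes rose and 19 fell, or 33.3% called, against 44.7% of all tested genes (13.9% higher and 30.8% lower). The median was -0.29, beside -0.15 over all genes. Median-ratio scaling moved the median of all genes to 0.00284 and that of the 72 to -0.11, with 9 rises and 14 falls. Of all genes, 20.9% rose and 21.0% fell with that scaling. The large subunit had 4 rises and 9 falls, and the small subunit 1 and 10. The median of the 72 was -0.28 and -0.22 without WT replicate 1 or 2, beside -0.17 and -0.13 over all genes. Without E3-KO replicate 1 or 2 it was -0.40 and -0.06, beside -0.18 and -0.12. Fewer of the 72 genes were called without either WT sample.

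Calls over all tested genes also dropped, in each comparison with WT, when a WT sample was left out. Whether the 72 genes were called more or less often than all genes depended on the setting. With equal sample totals, 45.8% of them were called in E1-KO against 37.8% of all genes, 40.3% against 38.4% in E2-KO and 38.9% against 42.8% in E3-KO. With quantile normalization the shares were 44.4% against 37.0%, 38.9% against 34.4% and 44.4% against 42.0%. With correction for GC content and length they were 62.5% against 39.8%, 45.8% against 36.4% and 56.9% against 45.8%. In that correction 43, 29 and 37 of the 72 genes fell, or 59.7%, 40.3% and 51.4%, against 23.9%, 22.5% and 31.5% of all genes. The median of the 72 genes in E2-KO became -0.12 with equal totals, -0.17 with quantile normalization and -0.28 with the correction.

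**Figure D1:**
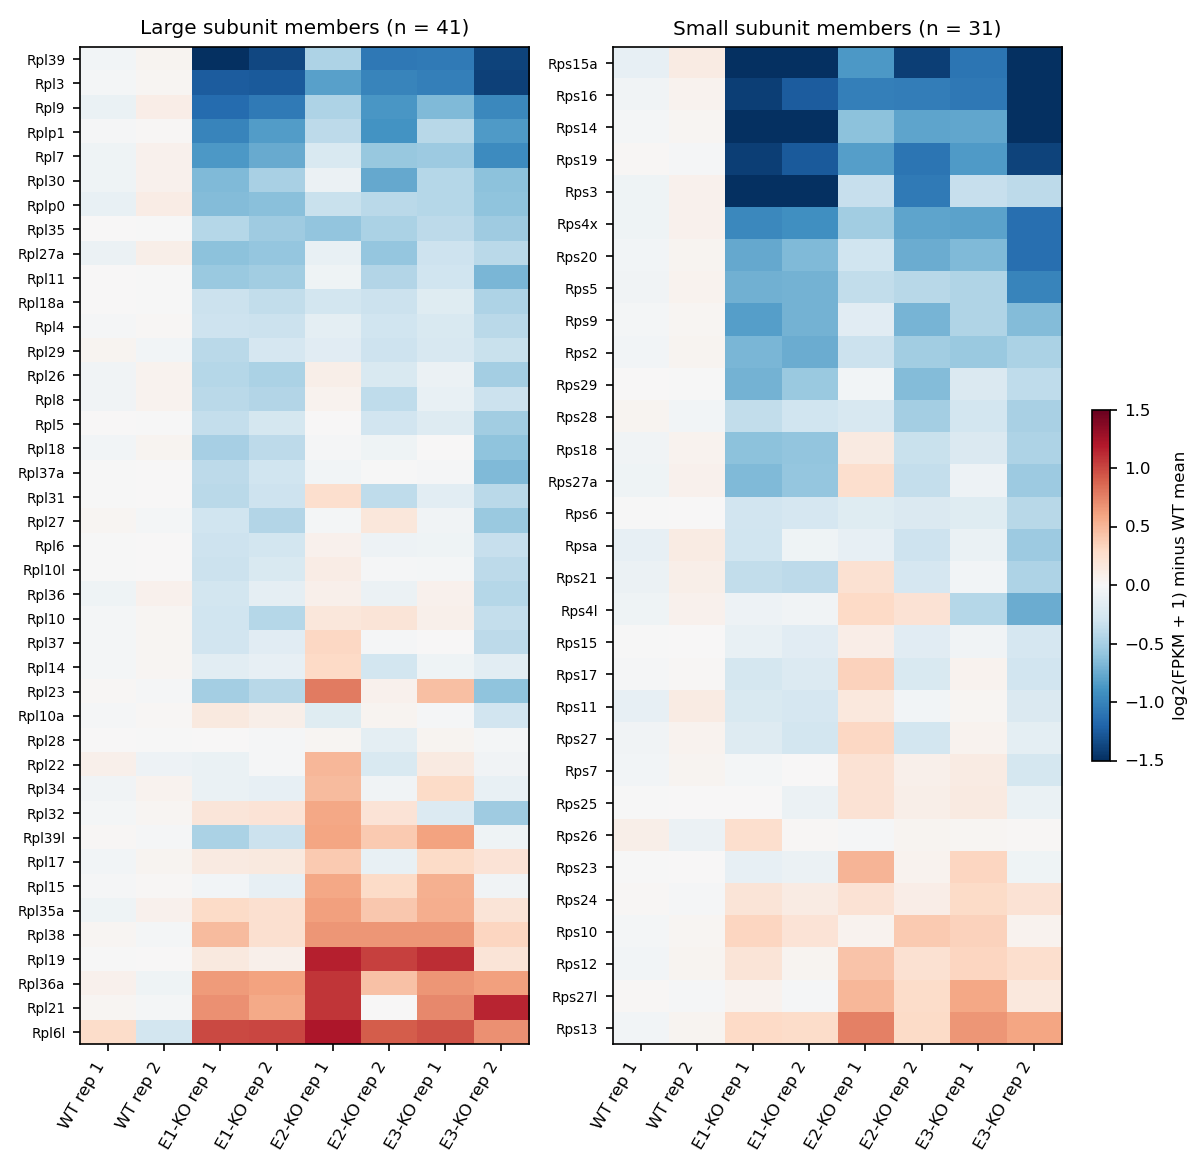
Log2(FPKM + 1) minus the WT mean (colour, ending at 1.5 in either direction) of the 41 large and 31 small subunit genes tested (rows, sorted by their mean over the knockouts) in the 8 samples (columns). Rps15a, Rps16, Rps14, Rps19, Rpl39 and Rpl3 are low in the knockouts, Rpl6l and Rpl36a are high in all of them and Rpl21 and Rpl19 in some, and replicate 2 of E3-KO is lower than replicate 1 in 70 of 72 genes.

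The deepest falls were in the small subunit. Rps15a, a core protein bound to the small subunit rRNA, was at 1255 and 1478 FPKM in WT, against 417 and 460.2 (E1-KO), 747 and 511 (E2-KO) and 635 and 455 (E3-KO). No knockout sample reached the WT values. The log2 fold change was -1.63 ± 0.21 (SE, n = 2 per group) in E1-KO, and it was -1.14 and -1.34 in the other 2 knockouts (limma adjusted p = 0.000726, 0.00395 and 0.00133).

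Rps16, whose tail reaches the peptidyl tRNA site, was at 1496 and 1616 FPKM in WT, against 585 and 652 (E1-KO), 761 and 756 (E2-KO) and 737 and 496 (E3-KO). All 6 knockout samples lay below both WT samples. The log2 fold changes were -1.33, -1.04 and -1.36 (SE 0.18 each, limma adjusted p = 0.000849, 0.00298 and 0.000569). Rps19, needed to mature the small subunit rRNA and often mutated in Diamond-Blackfan anaemia, was at 952 and 927 FPKM in WT, against 354 and 391 (E1-KO), 530.4 and 438 (E2-KO) and 522 and 359.5 (E3-KO). Its log2 fold changes were -1.33, -0.96 and -1.11 (SE 0.18 each, limma adjusted p = 0.000825, 0.0039 and 0.0014), again with no overlap between knockout and WT samples.

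Rps14, a protein of the platform of the small subunit, separated the samples differently. It was at 1912 and 1993 FPKM in WT, against 654 and 665 (E1-KO), 1277 and 1124 (E2-KO) and 1134 and 575 (E3-KO). Replicate 1 of E3-KO lay beside the E2-KO samples, and replicate 2 below both E1-KO samples. The gene fell in E1-KO by 1.56 and in E3-KO by 1.27 on the log2 scale (SE 0.26, limma adjusted p = 0.00227 and 0.00458), and its log2 fold change for E2-KO was -0.70 (limma adjusted p = 0.0634).

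Rps3, which lines the mRNA entry channel, differed between the knockouts. It was at 2543 and 2783 FPKM in WT, against 855 and 904 (E1-KO), 2088 and 1272 (E2-KO) and 2094 and 2032 (E3-KO). E1-KO was the lowest group, and replicate 2 of E2-KO lay between it and the rest. The gene fell in E1-KO (-1.60 ± 0.21, limma adjusted p = 0.000849) and E2-KO (-0.71, limma adjusted p = 0.0307), and gave -0.37 for E3-KO (limma adjusted p = 0.194). E3-KO was higher than E1-KO by 1.23 ± 0.21 on the log2 scale (limma adjusted p = 0.00381). In E2-KO the call was lost without replicate 2 of E2-KO (-0.35, limma adjusted p = 0.0864), either WT sample (0.0976 and 0.162) or either E1-KO sample (0.0563 and 0.0573).

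In the large subunit, Rpl3, which reaches toward the peptidyl transferase centre, was at 855 and 893 FPKM in WT, against 368 and 364 (E1-KO), 495 and 439 (E2-KO) and 429 and 329 (E3-KO). Its log2 fold changes were -1.25, -0.90 and -1.21 (SE 0.14 each, limma adjusted p = 0.000402, 0.00188 and 0.000306), with the smallest adjusted p of the 72 genes in each comparison with WT. Rpl39, a small protein of the peptide exit tunnel, was at 272 and 289 FPKM in WT, against 97.9 and 108 (E1-KO), 203 and 133 (E2-KO) and 134 and 107 (E3-KO). Its log2 fold changes were -1.44, -0.77 and -1.22 (SE 0.19 each, limma adjusted p = 0.000765, 0.0131 and 0.00117). Its fall in E2-KO was not called without WT replicate 1 (limma adjusted p = 0.0541) or replicate 2 (0.0822).

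Besides Rps15a, Rps16, Rps19, Rpl3 and Rpl39, 6 genes fell in each of the 3 knockouts, named here after their values were seen. Rplp0 and Rplp1, of the stalk that recruits translation factors, had WT means of 686 ± 78.7 and 1680.2 ± 30.6 FPKM (SD, n = 2). Their log2 fold changes were -0.64, -0.37 and -0.51 for Rplp0 and -0.91, -0.65 and -0.63 for Rplp1. Those of Rpl9, a large subunit protein, were -1.11, -0.67 and -0.82, of Rps4x, whose gene lies on the X chromosome, -0.94, -0.66 and -0.97, of Rps2, near the mRNA entry site, -0.72, -0.42 and -0.52, and of Rpl35, at the mouth of the exit tunnel, -0.48, -0.53 and -0.46. All 6 lost their call for E2-KO without WT replicate 2, and Rplp0, Rplp1 and Rpl35 also those for E1-KO and E3-KO and Rps2 that for E3-KO. Without WT replicate 1, the calls of Rpl35 for all 3 knockouts, of Rplp1 for E2-KO and E3-KO and of Rplp0 and Rps2 for E2-KO ended. The E2-KO calls also ended without replicate 2 of E2-KO for Rplp0, Rplp1, Rpl9 and Rps2, without replicate 1 of E2-KO for Rplp0, and without either E1-KO sample for Rplp0, Rplp1 and Rps2. The E3-KO calls of Rplp1 and Rpl35 ended without replicate 2 of E3-KO, the E1-KO call of Rplp1 without replicate 1 of E1-KO, and that of Rpl35 without either E1-KO sample. The highest limma adjusted p in these fits was 0.307, for Rplp0 in E2-KO.

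Other settings also bore on these 6 genes. With the median of the 72 genes made equal in all samples, Rplp0, Rps2 and Rpl35 were called in 0 of the 3 knockouts, with log2 fold changes of -0.25, -0.22 and -0.27 for Rplp0 (limma adjusted p = 0.325, 0.466 and 0.318), -0.33, -0.27 and -0.27 for Rps2 (0.167, 0.335 and 0.297) and -0.09, -0.39 and -0.22 for Rpl35 (0.749, 0.137 and 0.415). Rplp1 then lost its call for E3-KO (-0.39, limma adjusted p = 0.105). Median-ratio scaling ended the E2-KO calls of Rplp0 and Rps2 (limma adjusted p = 0.0762 and 0.0567) and the E3-KO calls of Rplp1 and Rpl35 (0.0746 and 0.0802). Quantile normalization ended the calls of Rpl35 for E1-KO and E3-KO (0.0643 and 0.0832), and a replicate block that of Rplp0 for E2-KO (0.0639). With the filter on low values left off, Rplp0, Rplp1 and Rps2 lost their E2-KO call (0.0832, 0.0935 and 0.073), Rplp1 its E3-KO call (0.0822) and Rpl35 its E1-KO call (0.053).

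Altogether, 11 of 72 genes were called lower and 2 higher in all 3 knockouts, and 40 were called in none. Among all 11272 tested genes, 1464 were lower and 739 higher in all 3, and 4314 were called in none. The WT samples are shared, so these are not separate experiments.

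**Figure D2:**
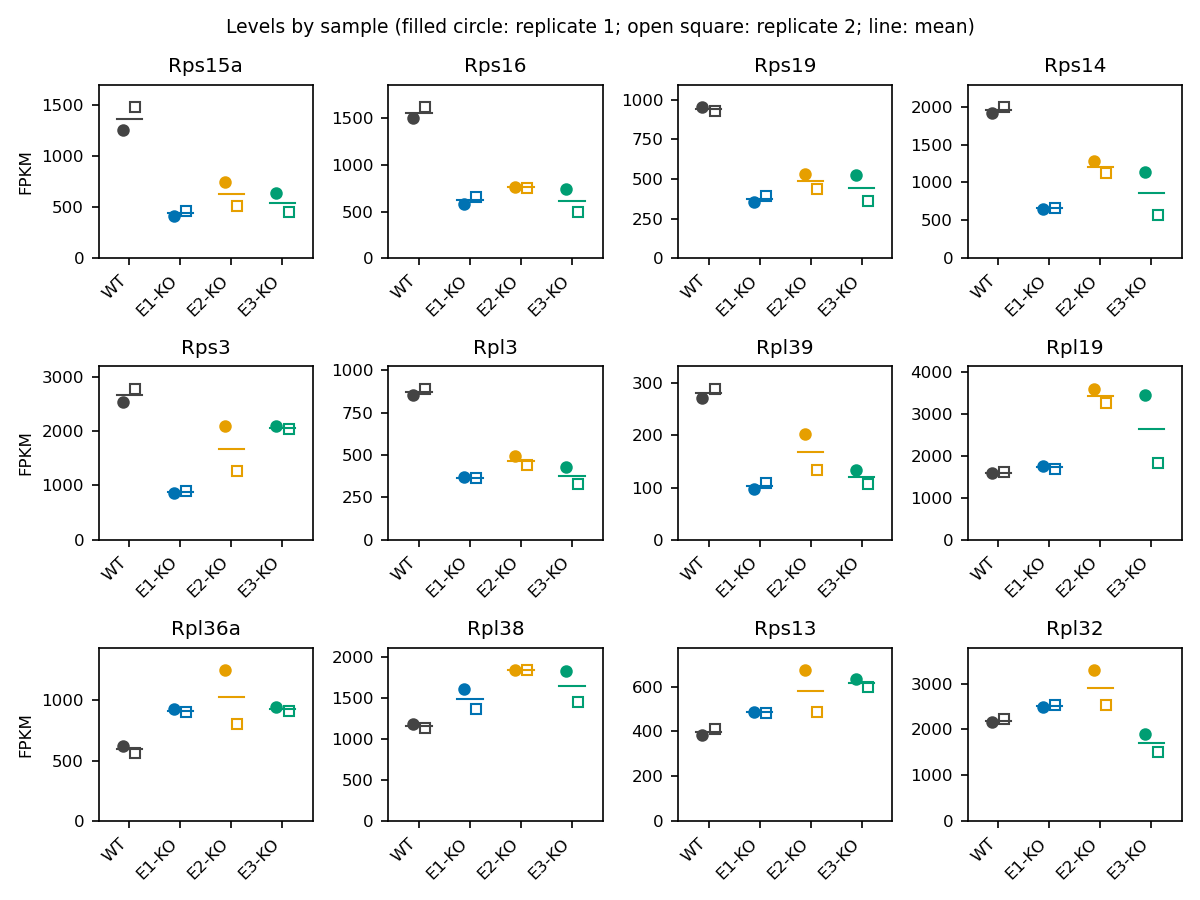
FPKM of 12 ribosomal protein genes by group (x axis), on linear axes from 0, with a filled circle for replicate 1, an open square for replicate 2 and a line for the mean. All knockout samples lie below WT for Rps15a, Rps16, Rps19, Rpl3 and Rpl39 and above WT for Rpl36a, Rpl38 and Rps13, and Rpl19 is high in both E2-KO samples and replicate 1 of E3-KO.

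Fewer genes rose. Rpl36a, a large subunit protein near the tRNA exit site, was at 623 and 569 FPKM in WT, against 927 and 905 (E1-KO), 1251 and 807 (E2-KO) and 945 and 911 (E3-KO). All knockout samples were above both WT samples. The log2 fold changes were 0.62, 0.75 and 0.64 (SE 0.19 each, limma adjusted p = 0.0298, 0.0143 and 0.0224). None of the 3 rises was called without WT replicate 1 (limma adjusted p = 0.09, 0.0573 and 0.0711) or WT replicate 2 (0.163, 0.0999 and 0.132). The rise in E1-KO was also lost without replicate 1 (0.131) or 2 (0.109) of E1-KO, and that in E3-KO without replicate 1 (0.0717) or 2 (0.0599) of E3-KO.

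Rpl38, known from the tail-short mouse, in which its loss alters the translation of Hox mRNAs, was at 1190.1 and 1138 FPKM in WT, against 1618 and 1374 (E1-KO), 1842 and 1842 (E2-KO) and 1837 and 1459 (E3-KO). No knockout sample overlapped with WT. It rose in E2-KO (0.66 ± 0.16, limma adjusted p = 0.0117) and E3-KO (0.49, limma adjusted p = 0.032), and gave 0.36 for E1-KO (limma adjusted p = 0.104). Correction for GC content and length ended both calls (limma adjusted p = 0.14 and 0.203), as did leaving out WT replicate 1 (0.0654 and 0.116) or WT replicate 2 (0.093 and 0.169). The call for E3-KO also ended without replicate 1 of E3-KO (0.119) or either E1-KO sample (0.0525 and 0.0546).

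Rps13, a small subunit protein, was at 386 and 409 FPKM in WT, against 488 and 482 (E1-KO), 673 and 486 (E2-KO) and 631 and 599 (E3-KO). The knockout samples were all above WT, and the 2 E2-KO samples lay on either side of those of E3-KO. It rose in E2-KO (0.53 ± 0.15, limma adjusted p = 0.0254) and E3-KO (0.63, limma adjusted p = 0.00931). The first call ended under quantile normalization (limma adjusted p = 0.174) and without replicate 1 of E2-KO (0.0881), WT replicate 1 (0.135) or WT replicate 2 (0.0973), and the second without WT replicate 1 (0.0661).

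Rpl21, a large subunit protein, was at 767 and 733 FPKM in WT, against 1203 and 1114 (E1-KO), 1579 and 751 (E2-KO) and 1238 and 1663 (E3-KO). Replicate 2 of E2-KO lay at the WT level, the other knockout samples above it. The gene rose in E3-KO (0.94 ± 0.30, limma adjusted p = 0.0302), and E3-KO differed from E1-KO and E2-KO by 0.31 and 0.40 (limma adjusted p = 0.474 and 0.391). The call ended without replicate 2 of E3-KO (limma adjusted p = 0.156), WT replicate 1 (0.0984) or WT replicate 2 (0.126). Rpl35a, another large subunit protein, was the remaining gene that rose in E2-KO, named after its values were seen (0.51, limma adjusted p = 0.0296). Its call ended without replicate 1 of E2-KO, either E1-KO sample or either WT sample (limma adjusted p at most 0.171), after correction for GC content and length (0.179) and with the filter on low values left off (0.0814). The pseudogene Rpl6l was called higher in all 3 knockouts, at levels of 0.937 to 1.80 FPKM. Without WT replicate 2, in which it is listed at 0, none of its calls held (limma adjusted p = 0.0627, 0.0502 and 0.113), and that for E3-KO also ended without replicate 1 of E3-KO (0.0753) or of both E2-KO and E3-KO (0.0667).

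How many calls held without any 1 sample was counted for the 72 genes only, so no share over all tested genes stands beside these counts. Of the 24, 12 and 19 falls in E1-KO, E2-KO and E3-KO, 10, 4 and 9 were called in every one of 8 fits that each left out 1 sample. Of the 2, 6 and 5 rises, 0 were. The falls of Rps15a, Rps16, Rps19 and Rpl3 in all 3 knockouts were among those kept, with a highest limma adjusted p of 0.0401 (Rps15a in E2-KO), as were those of Rps14 and Rpl39 in E1-KO and E3-KO. With the filter on low values left off, the calls that ended among those given here for genes chosen by the naming rule were the rises of Rpl19 and Rps13 in E2-KO, of Rpl21 and Rpl38 in E3-KO and of Rpl36a in E1-KO and E3-KO, the fall of Rps3 in E2-KO, and 2 differences between knockouts described further on, of Rpl32 and Rpl39l.

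Rpl19, a large subunit protein that reaches across to the small subunit, had the largest rise of the 72 genes in E2-KO. It was at 1599 and 1605 FPKM in WT, against 1767 and 1687 (E1-KO), 3605 and 3257 (E2-KO) and 3443 and 1826 (E3-KO). Both E2-KO samples and replicate 1 of E3-KO were at one level, and the other 5 samples at a lower one. The log2 fold change was 1.10 ± 0.26 for E2-KO (limma adjusted p = 0.0109), 0.11 for E1-KO (0.766) and 0.65 for E3-KO (0.0685). The call for E2-KO ended without WT replicate 1 (limma adjusted p = 0.0626) or WT replicate 2 (0.0674).

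The genes around Rpl19 were high in the same samples. Rpl19 lies on chromosome 11 from 98026710 to 98030492 on the plus strand, and Rpl23, a large subunit protein that binds MDM2, on the same chromosome from 97777527 to 97782437 on the minus strand, in the GRCm38 annotation, which is not the build the submitters name. For each ribosomal protein gene, the other tested genes within 500 kb on either side were taken as its neighbours, a window chosen after the values were seen. The 23 neighbours of Rpl19 had a median log2(FPKM + 1) minus the WT mean of 0.59 and 0.63 in E2-KO and 0.50 in replicate 1 of E3-KO. In replicate 2 of E3-KO it was -0.37, and in E1-KO -0.20 and -0.09.

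Around Rpl23, whose window overlaps that of Rpl19, the median of 22 neighbours was 0.59, 0.77 and 0.57 in those 3 samples, -0.07 in replicate 2 of E3-KO, and -0.17 and -0.09 in E1-KO. Rpl23 itself was at 1126 and 1104 FPKM in WT, against 785 and 838 (E1-KO), 1908 and 1164 (E2-KO) and 1524 and 732 (E3-KO), and passed the test in 0 of 6 comparisons. Among the other ribosomal protein genes of the 40 with at least 10 neighbours, the highest neighbour medians in the 3 samples were 0.32, 0.33 and 0.30. Over the 924 tested genes of chromosome 11 the median lay between -0.15 and -0.04 in every knockout sample. The part of the surrounding region in the Rpl19 values was not tested.

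Neighbours of the genes with the deepest falls differed from gene to gene. Those of Rps14 (12 genes) were low in all 6 knockout samples, with medians of -0.26 and -0.12 in E1-KO, -0.44 and -0.22 for E2-KO, and -0.32 and -0.38 for E3-KO. Those of Rps3 (8) were at 0.04 and -0.04 in E1-KO and between -0.14 and 0.21 in the other knockout samples. The neighbours of Rps16 (29 genes), Rps19 (25) and Rpl39 (15) had medians between -0.12 and 0.32 in the 6 knockout samples, and those of Rpl3 (16) between -0.29 and 0.05. Those of Rps15a, which number 6, were at -0.36 and -0.25 in E1-KO and between -0.18 and 0.06 in the other knockout samples. Each median was nearer to 0 than the value of its gene in the same sample. The part of the surrounding regions in these falls was not tested.

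Chromosome 6 carries Rpl32 and Rps4l. Rpl32, a large subunit protein, was at 2152 and 2236 FPKM in WT, against 2483 and 2535 (E1-KO), 3292 and 2526 (E2-KO) and 1906 and 1516 (E3-KO). Both E3-KO samples were below all others. E3-KO was lower than E2-KO by a log2 difference of -0.76 ± 0.18 (limma adjusted p = 0.0241), and the log2 fold change against WT was -0.37 (limma adjusted p = 0.13). The first call ended without any 1 sample other than replicate 2 of E2-KO or replicate 1 of E3-KO (limma adjusted p from 0.0534 to 0.0876).

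Rps4l was at 395 and 434 FPKM in WT, against 392 and 400.3 (E1-KO), 509.6 and 480.4 (E2-KO) and 308 and 247 (E3-KO). Here too both E3-KO samples were below all others. The gene fell in E3-KO against WT by 0.59 on the log2 scale (SE 0.13, limma adjusted p = 0.00602). E3-KO differed from E1-KO by -0.52 and from E2-KO by -0.84 (limma adjusted p = 0.0169 and 0.00386). The fall against WT was not called without WT replicate 2 (limma adjusted p = 0.0608) or with the median of the 72 genes made equal in all samples (0.195), nor the difference from E1-KO without replicate 1 (0.0935) or 2 (0.101) of E1-KO or replicate 2 of E3-KO (0.0591).

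The 10 neighbours of Rpl32 had medians of -0.80 and -0.77 in E3-KO, the 4 of Rps4l -0.43 and -0.67, and all 536 tested genes of the chromosome -0.58 and -0.66. The part of this in the values of Rpl32 and Rps4l was not tested.

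**Figure D3:**
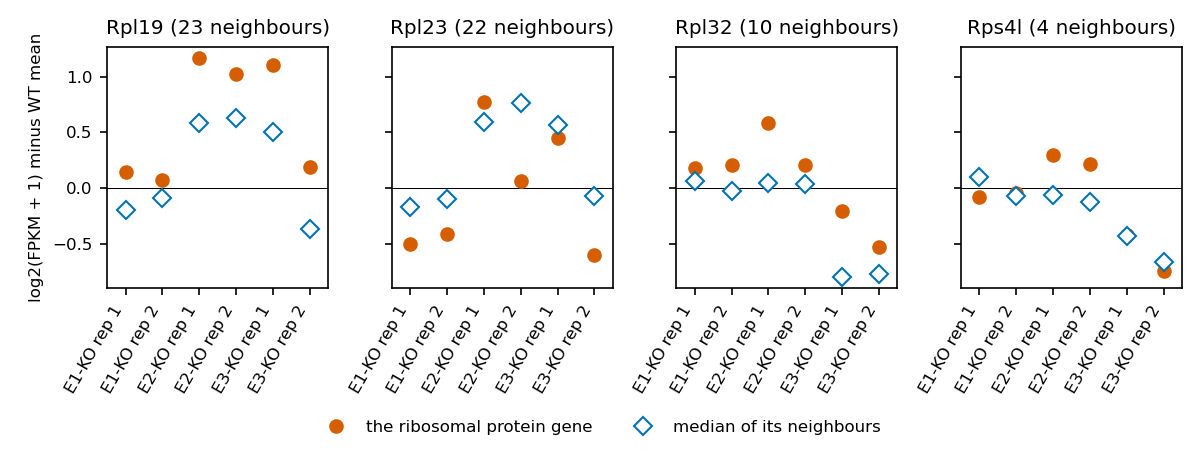
Log2(FPKM + 1) minus the WT mean (y axis) of 4 ribosomal protein genes (filled circles) and the median of the tested genes within 500 kb of each (open diamonds) in the 6 knockout samples (x axis). Neighbours of Rpl19 and Rpl23 are high in both E2-KO samples and replicate 1 of E3-KO, and those of Rpl32 and Rps4l are low in both E3-KO samples.

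Between the knockouts few of the 72 genes passed the test. In E2-KO against E1-KO, limma called 0, against 0.834% of all genes (0.488% higher and 0.346% lower). At an unadjusted p under 0.05 it gave 20 higher and 0 lower of the 72, against 9.13% and 9.43% of all genes. The median difference was 0.29, beside -0.005 over all genes, with 62 of 72 genes above 0. It was 0.13 without replicate 1 of E2-KO and 0.43 without replicate 2 of E2-KO. Without either E3-KO sample, or without replicate 2 of E2-KO, limma called some of the 72 genes higher in E2-KO.

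In E3-KO against E1-KO, Rps3 and Rpl39l were higher and Rps4l lower, or 4.17% of the 72, against 25.8% of all genes (9.42% higher and 16.4% lower). In E3-KO against E2-KO, Rpl32 and Rps4l were lower, or 2.78%, against 15.6% of all genes (5.48% higher and 10.1% lower). Called higher there were 0 genes by limma, and at an unadjusted p under 0.05 there were 0 higher and 3 lower, against 10.8% and 21.0% of all genes. The medians were 0.09 and -0.15, beside -0.10 and -0.09 over all genes. Calls in both comparisons moved with the sample left out. Against E1-KO, the median was 0.25 without replicate 2 of E3-KO and -0.05 without replicate 1, beside -0.08 and -0.12 over all genes. Against E2-KO, the median was -0.33 without replicate 1 of E3-KO and -0.002 without replicate 2, beside -0.11 and -0.06 over all genes. It was -0.02 without replicate 1 of E2-KO and -0.30 without replicate 2, beside -0.07 and -0.10.

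Rpl39l, the testis paralog of Rpl39, was at 44.3 and 43.5 FPKM in WT, against 31.4 and 34.8 (E1-KO), 66.5 and 57.7 (E2-KO) and 67.2 and 41.8 (E3-KO). E1-KO was the lowest group and did not overlap with any other. The difference of E3-KO from E1-KO was 0.67 ± 0.19 (limma adjusted p = 0.0305) and that of E2-KO from E1-KO 0.89 (limma adjusted p = 0.0708). The former call ended without replicate 1 (0.159) or 2 (0.0847) of E1-KO, replicate 1 of E3-KO (0.105; the difference was then 0.33) or either WT sample (0.0526 and 0.0527), and with the median of the 72 genes made equal in all samples (0.0827).

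**Figure D4:**
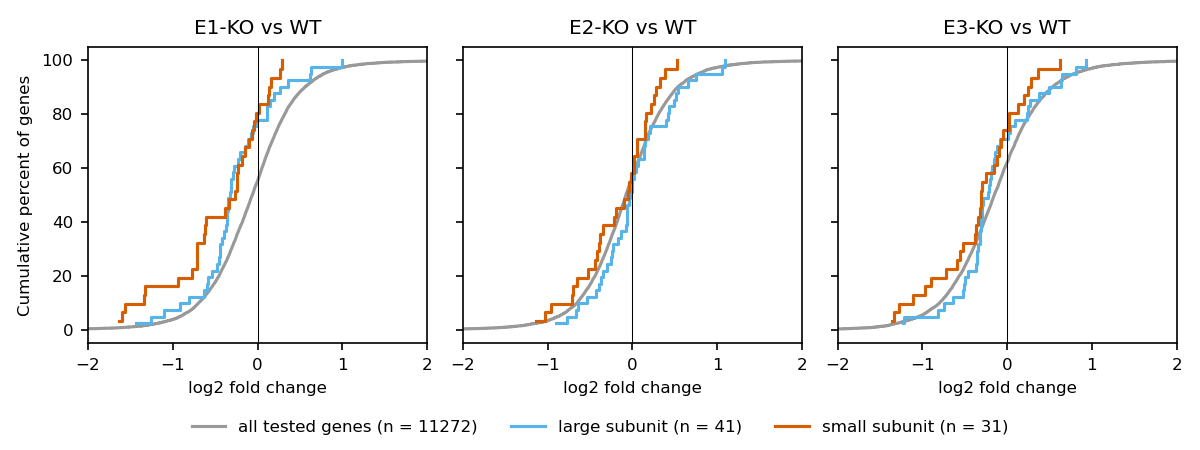
Cumulative percent of genes (y axis) by log2 fold change against WT (x axis, shown from -2 to 2) for all 11272 tested genes, the 41 large and the 31 small subunit genes tested. For E1-KO both subunits lie left of all genes at the median (-0.33 and -0.27 against -0.06), and for E2-KO they do not (-0.03 and -0.05 against -0.08).

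Replicates of E2-KO and E3-KO stood further apart in these genes than over all tested genes. Their median absolute log2 difference was 0.27 and 0.33 over the 72 genes, against 0.17 and 0.18. Most of the 72 genes also differed in the same direction. Replicate 1 exceeded replicate 2 in 64 of 72 genes in E2-KO (median log2 difference 0.27) and in 70 of 72 in E3-KO (0.32). Over all tested genes these medians were 0.02 and 0.05. In E1-KO and WT, replicate 1 was the higher in 29 and 20 of the 72 genes. The largest excess of replicate 1 was in Rpl21 in E2-KO (1.07) and Rpl23 in E3-KO (1.06).

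Samples of different groups could therefore be closer in these genes than replicates. The median absolute log2 difference over the 72 genes was 0.16 and 0.14 between replicate 1 of E3-KO and the E2-KO samples, against 0.33 between the 2 samples of E3-KO. Replicate 2 of E3-KO was nearest to E1-KO, at 0.12 from both samples. Over all tested genes the E3-KO samples were nearest to each other (0.18), at 0.22 or more from any other. The smallest differences over the 72 genes were within WT and within E1-KO, at 0.07 each.

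**Figure D5:**
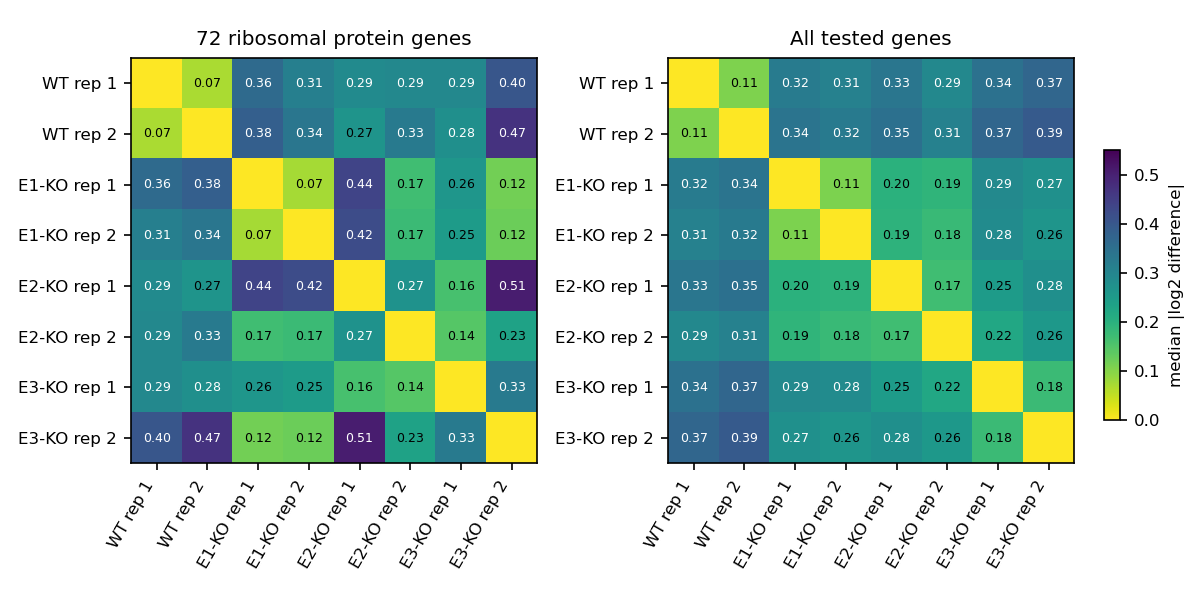
Median absolute difference of log2(FPKM + 1) between every 2 of the 8 samples over the 72 ribosomal protein genes (left) and all tested genes (right). On the left, replicate 2 of E3-KO is nearest to E1-KO and replicate 1 to E2-KO, and on the right the E3-KO samples are nearest to each other.

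The medians moved with these replicates. Without replicate 1 of E3-KO, the median log2 fold change of the 72 genes in E3-KO against WT was -0.40, and without replicate 2 it was -0.06. For E2-KO it was -0.23 without replicate 1 and 0.06 without replicate 2. Without replicate 1 of both, an alternative chosen after seeing the data, E2-KO had 10 rises and 33 falls and E3-KO 4 and 49. Of all tested genes, 13.6% rose and 21.6% fell in E2-KO in that fit, and 15.2% and 33.7% in E3-KO.

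The genes were also described after each sample was shifted so that the median of the 72 was equal in all samples, which was likewise chosen after seeing the data and takes out the shared shift by construction. On this scale the median of all tested genes against WT was 0.33 in E1-KO, and 28.2% of all genes were called higher and 3.94% lower there, beside 19.4% and 13.9% of the 72. For E2-KO these shares were 11.9% and 6.17% of all genes, beside 18.1% and 13.9%, and for E3-KO 15.3% and 8.14%, beside 15.3% and 15.3%. Of the 72 genes, 8 were higher and 8 lower than WT in all 3 knockouts on this scale. Rpl36a then had log2 fold changes of 1.01, 0.90 and 0.88, and Rpl3 of -0.86, -0.76 and -0.97.

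Features of the genes were set beside their changes. Of the 72 genes, 22 hold an annotated small nucleolar RNA gene, as is common in this family. Their medians were -0.33, -0.17 and -0.32 for E1-KO, E2-KO and E3-KO in turn, and those of the other 50 were -0.30, -0.03 and -0.24. Across the 72 genes, Spearman's correlation of the log2 fold change with transcript length was -0.24, -0.27 and -0.28, and with GC content -0.02, -0.14 and -0.11. The genes share the same 8 libraries, and these values are a description.

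Genes that work with the ribosomal proteins were taken from lists. Of 16 translation factors with TOP mRNAs, 1 rose and 3 fell in E1-KO, 1 and 3 in the E2-KO line and 1 and 2 in the E3-KO line, with medians of -0.10, -0.09 and -0.17. Eef2, the elongation factor that moves the ribosome along the mRNA, fell, with log2 fold changes of -0.96, -0.90 and -0.89 (SE 0.12 each, limma adjusted p = 0.000556, 0.000804 and 0.000543), while Eef1d, of the complex that recharges elongation factor eEF1A, rose by 0.61, 0.60 and 0.67 (SE 0.11 each, limma adjusted p = 0.00289, 0.00332 and 0.00142). Of 23 tested initiation factors, 8 rose and 3 fell in E1-KO, 6 and 1 in the E2-KO line and 7 and 2 in the E3-KO line (47.8%, 30.4% and 39.1% called). Among them Eif4a2 fell in E1-KO, with the lowest log2 fold change of the list (-1.83). That call ended with the filter on low values left off (limma adjusted p = 0.0584). Eif1ax, which helps the ribosome to scan for the start codon, rose by 0.97, 0.89 and 0.57 (SE 0.10 each, limma adjusted p = 0.000284, 0.000457 and 0.00216).

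Of 30 genes that assemble ribosomes, 14 rose and 1 fell in E1-KO, 12 and 1 in the E2-KO line and 7 and 3 in the E3-KO line, with medians of 0.38, 0.38 and 0.20. Bop1, of the complex that matures the large subunit rRNA, rose by 0.58, 0.83 and 0.45 (SE 0.11 each, limma adjusted p = 0.00333, 0.00077 and 0.00891), the last of which was not called without WT replicate 1 (0.0628). Of 14 tested genes of RNA polymerase I, which transcribes the rRNA, 4 rose and 1 fell in E1-KO, 4 and 0 in the E2-KO line and 2 and 3 in the E3-KO line. That was 35.7%, 28.6% and 35.7% called, in no knockout above the share of all tested genes. Of 18 tested regulators of ribosomal protein output, 5 rose and 2 fell in E1-KO, 2 and 1 in the E2-KO line and 4 and 4 in the E3-KO line. Their called shares were 38.9%, 16.7% and 44.4%, near those of all tested genes in E1-KO and E3-KO. Mycn, of the same list, was called lower in E1-KO (log2 fold change -0.34) and in E3-KO. Median-ratio scaling ended the first call (limma adjusted p = 0.0658), and equal medians of the 72 genes ended both (0.891 and 0.159). Myc, a factor that drives ribosome production, was at 1.46 and 1.37 FPKM in WT and 3.08 to 9.81 in the knockouts, and rose by 1.77, 1.75 and 0.94 (SE 0.24 each, limma adjusted p = 0.000948, 0.00107 and 0.0131). Its rise in E3-KO was not called without replicate 1 of E3-KO (0.0768), WT replicate 1 (0.0534) or WT replicate 2 (0.0686).

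The ribosomal proteins of the mitochondrion belong to a separate ribosome. Of 75 such genes, 25 rose and 9 fell in E1-KO, 31 and 5 in the E2-KO line and 21 and 12 in the E3-KO line, with medians of 0.14, 0.31 and 0.02, beside -0.32, -0.04 and -0.29 for the 72 cytoplasmic ones. Called were 45.3%, 48.0% and 44.0%, against 38.0%, 36.1% and 44.7% of all tested genes. Mrpl46 rose by 1.29, 1.23 and 1.11 (SE 0.09 each, limma adjusted p = 6.18e-05, 8.19e-05 and 8.53e-05). The lists were not tested against each other.

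Relatives with symbols outside the rule were looked at last. Rpl22l1, a paralog of the large subunit gene Rpl22, was at 61.8 and 66.0 FPKM in WT, against 18.0 and 23.1 (E1-KO), 29.4 and 19.0 (E2-KO) and 13.3 and 11.4 (E3-KO). No knockout sample reached the WT values. Its log2 fold changes were -1.60, -1.39 and -2.28 (SE 0.19 each, limma adjusted p = 0.000541, 0.00107 and 8.8e-05). Rpl22 itself was at 575 and 515 FPKM in WT, against 510.0 and 537 (E1-KO), 770.1 and 466 (E2-KO) and 596 and 525 (E3-KO), with log2 fold changes of -0.06, 0.14 and 0.04 (limma adjusted p = 0.847, 0.626 and 0.893). Rpl36al, a relative of Rpl36a, was at 227 and 222 FPKM in WT, against 318 and 313 (E1-KO), 487 and 306 (E2-KO) and 409.6 and 369.7 (E3-KO). It rose in E2-KO and E3-KO (0.78 and 0.79, SE 0.19 each, limma adjusted p = 0.0119 and 0.00856) and gave 0.49 for E1-KO (limma adjusted p = 0.0667). The rise in E2-KO was not called without WT replicate 1 (0.0592) or 2 (0.0741), nor that in E3-KO without WT replicate 2 (0.0551).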

How the data were processed

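Total RNA libraries of 8 samples were read as paired ends, as the labels' protocols state. The FPKM values are as deposited by the authors, 1 per row and sample; per the submitters' processing notes, Trimmomatic 0.36, TopHat2 2.0.12, Cufflinks 2.2.1 and the mouse build mm9 were used, with no roles given, and the unit was taken as FPKM from the values and from Cufflinks being named. Ribosomal protein genes are short and have many near-identical copies, so length and shared reads affect their FPKM.

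Each file held 18774 rows for 17812 identifiers. Of 660 identifiers with several rows, 581 were kept at the row placed among the gene's neighbours in the file order, and 79 were left out. A name table gave symbols to 17262. Positions, lengths and biotypes came from GENCODE M21 (GRCm38), promoter sequences from RefSeq (GRCm38.p6).

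The 11272 genes whose mean reached 1 FPKM were fitted on log2(FPKM + 1) with limma 3.58.1 in R 4.3.3 (trend, group as the only term, all 8 samples, 4 residual degrees of freedom), with Benjamini-Hochberg adjustment over all of them. The script was tested on simulated data. Python 3.11.15 and matplotlib 3.10.9 made tables and figures. Named were, for each comparison with WT, the 5 largest rises and 5 largest falls called, between knockouts the 3 largest in each direction, the 5 highest and 5 lowest genes in WT, paralogs, genes of chromosome 6, and up to 4 called genes per list. The members and lists were chosen with earlier results of these data known. For same-numbered samples, correlations of their deviations from the group means ran from -0.0426 to 0.0892 over all tested genes. Over the ribosomal protein genes they ran from -0.344 to 0.235. Such a correlation does not see a shift shared by all the genes it covers. Replicate 1 was the higher in 64 of the 72 genes in E2-KO and 70 in E3-KO, but in 29 in E1-KO and 20 in WT. Whether the numbers mark a shared batch was not tested. Alternatives covered scaling, pseudocount, filter, repeated rows, GC content with length, a replicate block and leaving out samples.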

Additional observations from a re-analysis of the deposited data

Results flagged for a closer look

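In 5 cases a ribosomal protein gene differed between 2 knockouts by limma's test of that difference. For E3-KO against E1-KO this was 4.17% of the tested ribosomal protein genes, beside 25.8% of all tested genes. For E3-KO against E2-KO it was 2.78%, beside 15.6%. The calls of Rpl39l, of Rpl32 and of the pseudogene Rps4l against E1-KO ended without some of the single samples. For E3-KO against E1-KO, the log2 difference was 1.23 in Rps3 (limma adjusted p = 0.00381), 0.67 in Rpl39l (0.0305) and -0.52 in Rps4l (0.0169). For E3-KO against E2-KO, it was -0.84 in Rps4l (limma adjusted p = 0.00386) and -0.76 in Rpl32 (0.0241). Rps4l and Rpl32 lie on chromosome 6, whose tested genes had medians of -0.58 and -0.66 in the E3-KO samples, and the part of this in the differences was not tested.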

How the results depend on the processing

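With 2 samples per group, counts of calls moved with the setting, and the cause was not tested. The correlation of same-numbered samples had a mean of 0.0047 over all tested genes, a measure that does not see a shift shared by all the genes it covers. With a replicate block, rises and falls were 2 and 23 (E1-KO), 7 and 11 (E2-KO), and 6 and 18 (E3-KO). Of all genes, 14.3% and 21.7%, 13.6% and 20.6%, and 13.2% and 29.5% then rose and fell. Correction for GC content and length gave 43, 29 and 37 falls, a median of -0.275 for E2-KO, and 2 genes lower in E3-KO than E1-KO, as did a pseudocount of 0.1 (2). With the correction 23.9%, 22.5% and 31.5% of all genes fell. Lower in E3-KO than E1-KO were 17.7% of all genes with it and 16.4% with that pseudocount. Equal totals gave 23 falls for E2-KO, 8 rises for E3-KO, and 4 higher and 2 lower in E3-KO than E1-KO. The shares of all genes were 26.8%, 14.7%, 10.5% and 12.6% in turn. Quantile normalization gave 4 rises for E1-KO, 23 falls for E2-KO, and 4 higher and 2 lower in E3-KO than E1-KO. Here the shares of all genes were 18.1%, 17.8%, 12.3% and 12.5% in turn. Median-ratio scaling gave 11 rises (E2-KO) or 9 (E3-KO), and over all genes 2059 higher and 2169 lower (E1-KO), 2002 and 1967 (E2-KO), and 2358 and 2370 (E3-KO), in place of 1694 and 2590, 1595 and 2476, and 1566 and 3471. Without the filter on low values, which adds genes to adjust over, rises numbered 1, 3 and 2, falls in E2-KO 8, and 1 gene was higher in E3-KO than E1-KO and 1 lower than in E2-KO. Equal medians of the 72 genes gave 14 rises and 10 falls for E1-KO (median 0.0684), 13 rises for E2-KO, 11 and 11 for E3-KO (median -0.0454), 4 genes higher in E2-KO than E1-KO (median 0.0415), and 1 higher and 2 lower in E3-KO than E1-KO, and turned Rpl29 (0.0628) and Mycn (0.047) in E1-KO above 0. Of all genes, 28.2% rose and 3.94% fell in E1-KO, 11.9% rose in E2-KO, and 15.3% rose and 8.14% fell in E3-KO. Higher in E2-KO than E1-KO were 0.435% of all genes, and 4.07% were higher and 13.4% lower in E3-KO than E1-KO. Leaving out replicate 1 of both E2-KO and E3-KO gave 8 rises and 44 falls for E1-KO, 10 and 33 for E2-KO, 49 falls for E3-KO, 7 higher and 1 lower in E2-KO than E1-KO, 4 and 6 in E3-KO than E1-KO, and 2 and 18 in E3-KO than E2-KO. Leaving out 1 sample at a time, rises ranged over 0 to 4, 0 to 10 and 1 to 8 for the 3 knockouts, falls over 10 to 32, 4 to 18 and 9 to 30. In these fits the medians of E2-KO and E3-KO against WT ranged over -0.227 to 0.0584 and -0.404 to -0.0642. Between knockouts, the median ranged over -0.0501 to 0.251 in E3-KO against E1-KO, beside -0.121 to -0.0766 over all genes. In E3-KO against E2-KO it ranged over -0.335 to -0.00219, beside -0.107 to -0.0644. Of 104 calls of named genes, 38 were lost without WT replicate 2 and 32 without WT replicate 1, and 1 to 16 without any other sample.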
